A study of Triticum aestivum with 12 samples.

Results

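Frozen wheat crowns with and without prior cold acclimation were compared in 6 RNA sequencing libraries out of the 12 in the series, chosen by their labels alone. Per the labels all plants were Triticum aestivum cultivar Jing411, a hexaploid bread wheat. The 3 LTAF libraries came from plants held at 4 °C for 28 days and then frozen, and the 3 NTGF libraries from plants held at 20 °C for 28 days and then frozen. Freezing was at -5 °C for 24 hours in both groups, so the groups share the freezing step and differ in the temperature before it. The 3 LTA libraries (4 °C for 28 days) and the 3 NTG libraries (20 °C for 28 days) were not frozen. They give the difference that was already there before freezing. They also enter the fit of all 12 libraries, and so its filter, scaling and estimate of the spread. RNA was extracted from crowns per the labels' protocols, although the labels' tissue field reads SEEDING. The series' design text calls the 3 libraries of a group biological replicates, and the labels do not say how many plants went into each. After 28 days at 4 or 20 °C plants can also differ in growth and stage, and such a difference cannot be told apart from acclimation in this design.

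The crown is the stem base of a cereal plant, where the shoot meristem and the buds of new tillers and roots sit, and its survival decides whether a winter cereal regrows after frost. Cold acclimation is the gain in freezing tolerance that follows weeks at low, non-freezing temperature. It is known to involve cold-induced transcription factors of the CBF family, protective proteins such as dehydrins, soluble sugars and changes in membrane lipids. Winter wheat also passes through vernalization under the same treatment, which prepares the meristem for flowering. Bread wheat carries the A, B and D subgenomes, so most genes have near-identical copies on homoeologous chromosomes, and reads that match several copies may be divided or dropped by the authors' counting. No name stands beside any identifier in the table, and the reference table matched 0 of 128497 of them, so no role can be given to any single gene here and no marker of crown tissue could be read. Chromosome, order along the chromosome and confidence class are carried by the identifiers. An identifier ending in LC is a low-confidence (LC) gene model, and the others are high-confidence (HC) models.

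The LTAF libraries held 18417291 to 19958430 counted reads and the NTGF libraries 17871036 to 20089202. Since no molecular identifiers mark the reads, floors given here cover counting error only. One library of the acclimated group stood apart. Across the 69693 tested genes Spearman's correlation was 0.978 between replicates 1 and 3 of LTAF and 0.935 and 0.917 between replicate 2 and each of these. Against the NTGF libraries it was 0.875 to 0.897 for LTAF replicate 2 and 0.763 to 0.861 for the other LTAF libraries. Among the NTGF libraries it was 0.932 to 0.947. The NTGF libraries stood apart at the lowest-numbered end of chromosome 1A, where 16 HC models held 18, 3 and 4 counts in NTGF replicates 1, 2 and 3 and 96 to 154 counts in each of the other 9 libraries. Whether NTGF plants differ in genotype there or transcribe these genes less cannot be told apart, and the single cultivar given by the labels was not tested. The median gene had a standard deviation of 0.33 log2 CPM within LTAF and 0.37 within NTGF, against 0.22 within NTG and 0.23 within LTA. CPM is a gene's count divided by its library's TMM-adjusted size, on the usual scale of CPM.

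Acclimated and unacclimated crowns differed in a large part of the transcriptome after the same freezing. In LTAF, 14057 genes were higher than in NTGF (20.2% of 69693 tested) and 13664 were lower (19.6%), by edgeR's quasi-likelihood test at a Benjamini-Hochberg adjusted p under 0.05. Of these, 9055 were at least 2-fold higher (13.0% of tested genes) and 8985 at least 2-fold lower (12.9%). Differences of 16-fold or more numbered 770 higher and 392 lower, and differences of 64-fold or more 273 higher and 82 lower. LC models made up 88 of the 273 (32.2%) and 11 of the 82 (13.4%), against 12097 of the 69693 tested genes. Such large fitted differences can rest on a group with few or no counts, where their size is uncertain. The higher genes held 45.4, 38.2 and 47.6% of all counts in LTAF replicates 1, 2 and 3, and 17.6, 21.5 and 18.1% in NTGF replicates 1, 2 and 3. The lower genes held 12.6, 17.2 and 11.8% in the LTAF replicates and 35.5, 32.5 and 33.6% in the NTGF replicates. LTAF replicate 2 is the LTAF library nearest to NTGF in both shares. The genes were called on the same libraries, so these shares describe the size of the called lists and are no test.

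The counts of calls depended on the libraries and on the fit. Without LTAF replicate 2 there were 15186 higher and 16300 lower genes, of which 12833 and 12352 were among the calls made with all libraries. Without LTAF replicate 1 the lower genes dropped to 9093. Without NTGF replicate 1 the counts were 11697 and 11241. A fit of LTAF and NTGF alone, which lacks the other 6 libraries for its estimate of the spread, called 8078 higher and 7941 lower genes. The full fit pools the spread over all groups. The median gene's SD in log2 CPM was smaller within NTG (0.22) and LTA (0.23) than within LTAF (0.33) and NTGF (0.37). How much of the drop came from this unequal spread, or from fewer libraries, was not tested. Scaling by library totals put the median gene at -0.15 on the log2 scale, against -0.03 with TMM, and gave 11728 higher and 15867 lower genes (7724 and 10604 at least 2-fold). The balance of higher and lower calls thus depends on the scaling, and directions hold relative to the bulk of genes.

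The genes that moved the most transcripts were ranked by the difference in mean CPM, among genes called at least 2-fold whose LTAF and NTGF libraries did not overlap. The lack of overlap in the genes named below therefore follows from their choice. Of all tested genes, 15631 (22.4%) had every LTAF library above every NTGF library, and 15049 (21.6%) had every one below. The first 2 in each direction are given by identifier. TraesCS5D01G329200 lay at 4148, 2987 and 5168 CPM in LTAF replicates 1, 2 and 3 and at 590.0, 861.2 and 382.7 CPM in the NTGF replicates. All 3 LTAF libraries were above all 3 NTGF libraries, with the lowest LTAF value in replicate 2. The mean was 4101 ± 1092 CPM in LTAF and 611.3 ± 239.9 CPM in NTGF (SD, n = 3 each), 6.71-fold higher, with a fitted log2 fold change of 2.75 ± 0.30 (SE; edgeR adjusted p = 7.03e-05). The unfrozen crowns held 4351 ± 530 CPM in LTA and 1462 ± 204 CPM in NTG, so the NTGF mean was below the NTG mean and the LTAF mean was close to that of LTA.

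TraesCS5A01G322500 lay at 3805, 2787 and 4653 CPM in the LTAF replicates and at 623.9, 920.6 and 391.0 CPM in the NTGF replicates. Again the groups did not overlap, which the ranking required. Its log2 fold change was 2.54 ± 0.30 (SE; edgeR adjusted p = 0.000104), and its unfrozen means were 3975 ± 455 CPM in LTA and 1408 ± 171 CPM in NTG. The libraries of each group fell in the same order for both genes, which lie on the homoeologous chromosomes 5D and 5A. Whether they are copies of one another, with shared reads, cannot be read from the identifiers. Before freezing, LTA was higher than NTG for both (edgeR adjusted p = 0.00128 and 0.00176), by a log2 fold change of 1.57 for the gene on 5D. The test of the change between the comparisons did not pass for either (1.17 ± 0.40 and 1.04 ± 0.40; edgeR adjusted p = 0.0779 and 0.111).

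TraesCS2B01G077700 led the lower genes. It lay at 79.3, 194.0 and 77.7 CPM in LTAF replicates 1, 2 and 3 and at 1135, 1878 and 1285 CPM in the NTGF replicates. All LTAF libraries were below all NTGF libraries, and LTAF replicate 2 was the highest of its group. The means were 117.0 ± 66.7 CPM and 1433 ± 393 CPM, 12.2-fold lower in LTAF, with a log2 fold change of -3.61 ± 0.43 (SE; edgeR adjusted p = 0.000137). The unfrozen means were 170.7 ± 70.2 CPM in LTA and 1048 ± 248 CPM in NTG.

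TraesCS5A01G015000 lay at 901.5, 902.3 and 909.1 CPM in the LTAF replicates and at 2654, 1815 and 1858 CPM in the NTGF replicates. The LTAF libraries lay close together and below all NTGF libraries, while NTGF replicate 1 was well above the other NTGF libraries. The log2 fold change was -1.22 ± 0.17 (SE; edgeR adjusted p = 0.000275), and it was -0.99 with LTAF replicate 2 and NTGF replicate 1 both left out. Unfrozen crowns held 1016 ± 58.0 CPM in LTA and 1833 ± 96.1 CPM in NTG. Both lower genes were also lower in LTA than in NTG (-2.62 and -0.85; edgeR adjusted p = 0.000569 and 0.00208).

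**Figure D1:**
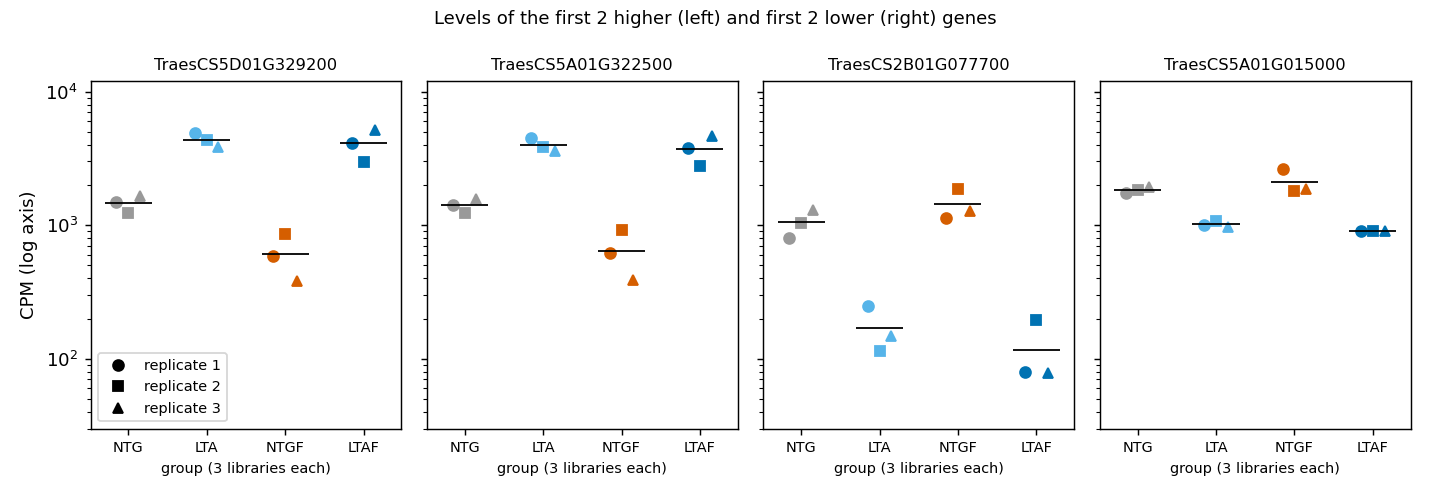
Levels in CPM (log axis) of the first 2 higher and the first 2 lower genes in LTAF against NTGF, in all 12 libraries. Each symbol is a library, its shape gives the replicate number, and the line is the group mean. The 4 genes were chosen among those whose LTAF and NTGF libraries do not overlap. LTAF lies near LTA in each.

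Among the first 12 higher genes of this ranking, log2 fold changes ran from 2.54 to 7.04, and the 12 together took 2.28% of the counts in LTAF and 0.230% in NTGF. They fell into patterns by the interaction, the LTAF to NTGF difference minus the LTA to NTG difference on the log2 scale. For 5 of the 12, on chromosomes 1A, 1B, 1D and 5D, the interaction was positive (up to 3.87; edgeR adjusted p from 0.000368 to 0.0152). These 5 genes were abundant in NTG, with group means of 774.8 to 1805 CPM, and in LTA and LTAF, but held 66.8 to 272.3 CPM in NTGF. For 3 of the 12, on 2A and 2D, the interaction was negative (-3.92 to -3.24; edgeR adjusted p from 0.00414 to 0.0121). These 3 were nearly off in NTG, at 2.43 to 4.82 CPM, and held 28.7 to 86.5 CPM in NTGF, against 1083 to 1858 CPM in LTA and 1314 to 2203 CPM in LTAF. The other 4, which include both named genes, did not pass the interaction test. Thus the list held genes abundant in unfrozen, unacclimated crowns and genes that were almost silent there.

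The first 12 lower genes had log2 fold changes of -3.61 to -1.16, and took 0.517% of the counts in LTAF and 1.67% in NTGF. Of these, 7 were also called lower in LTA than in NTG and 5 were not called there. The interaction was negative for 4, on 2B, 6D, 7A and 7D (-1.70 to -1.34; edgeR adjusted p from 0.0148 to 0.0461). These 4 held 630.8 to 978.0 CPM in NTG, 1047 to 1526 CPM in NTGF and 270.8 to 645.5 CPM in LTAF.

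A second ranking, by fitted fold change, took non-overlapping genes whose higher group averaged 10 CPM or more and brought up scarcer genes. Its first 12 higher genes held 10.1 to 246.5 CPM in LTAF and at most 0.332 CPM in NTGF, where 5 of the 12 had no count. Of these 12, 11 were called higher in LTA than in NTG as well, the interaction was positive for 6, and 5 were LC models. Its first 12 lower genes held 12.3 to 388.6 CPM in NTGF and at most 6.76 CPM in LTAF, where 1 had no count. All 12 were also called lower in LTA than in NTG, and the interaction was called for 0 of them. Their means were 0.0499 to 5.30 CPM in LTA and 2.33 to 330.0 CPM in NTG. Levels this low in both acclimated groups leave the interaction test few counts, so its 0 calls do not show equal differences. Each list was spread over 10 or 11 chromosomes, counting unplaced models as 1.

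The unfrozen libraries show which of the calls between frozen crowns were also made before freezing. LTA against NTG shares no library with LTAF against NTGF, and called 13907 genes higher (20.0% of tested genes) and 12600 lower (18.1%). Genes higher in both comparisons numbered 7997, which is 56.9% of those higher after freezing and 57.5% of those higher before it. Genes lower in both numbered 6227, or 45.6% and 49.4% of the lists. Under scaling by library totals the order turned, with 5664 genes higher in both and 10174 lower in both. Opposite calls were fewer, with 331 genes lower before and higher after freezing and 293 higher before and lower after. Of the genes higher in LTAF, 5729 had no call before freezing, and the interaction was called for 1495 of them. Of the lower genes, 7144 had no call before freezing, and the interaction was called for 1189. A missing call before freezing thus does not show that the difference was absent there. Across all 69693 tested genes the fold changes of the 2 comparisons had a Pearson correlation of 0.614 and a Spearman correlation of 0.585, a description over genes that are not independent replicates and were scaled and fitted together.

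The share of genes called the same way before freezing was also read by the size of the difference after it, with no test. Of genes called higher in LTAF by less than 2-fold, 56.8% were called higher in LTA too, and the share was 57.0% at 2-fold or more and 56.8% at 4-fold or more. It was 64.9% at 8-fold or more, 74.9% at 16-fold or more and 81.3% at 64-fold or more. Among lower genes it was 31.9% under 2-fold, 52.7% at 2-fold or more, 61.5% at 4-fold or more, 79.8% at 16-fold or more and 82.9% at 64-fold or more. None of the 273 genes at least 64-fold higher and none of the 82 at least 64-fold lower was called the opposite way before freezing.

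**Figure D2:**
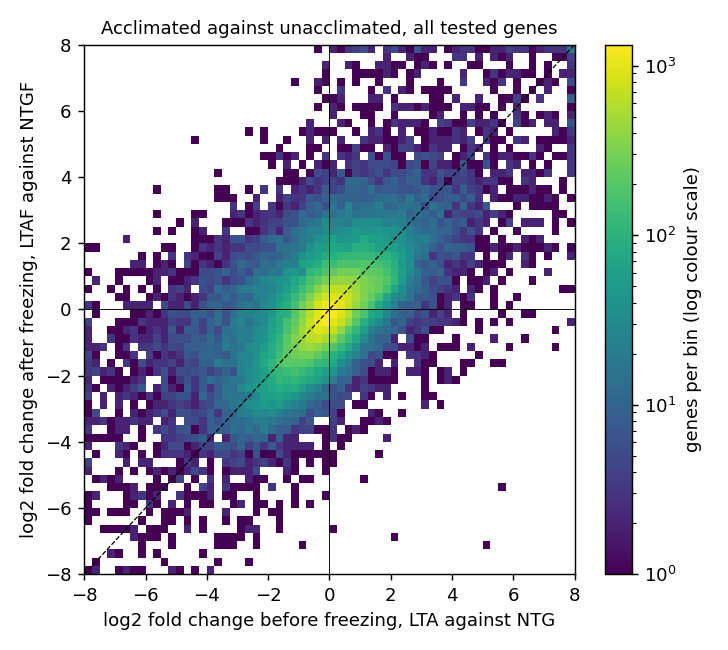
Fitted log2 fold change of each tested gene before freezing (LTA against NTG, horizontal) and after freezing (LTAF against NTGF, vertical), as genes per bin on a log colour scale. The dashed line marks equal differences, and the 182 genes at or beyond 8 on either axis are drawn at the edge. Genes lie along the line and also spread beside it on both axes (Pearson correlation 0.614).

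The frozen libraries were also read at the genes called before freezing. That contrast does not use the frozen libraries, but they share its filter, scaling and estimate of the spread. The 13907 genes higher in LTA averaged 3.53, 3.33 and 3.59 log2 CPM in LTAF replicates 1, 2 and 3 and 2.38, 2.64 and 2.41 log2 CPM in the NTGF replicates. LTA replicates lay at 3.51 to 3.55 and NTG replicates at 2.01 to 2.08. The 12600 genes lower in LTA averaged 1.08, 1.05 and 1.02 log2 CPM in LTAF and 1.87, 1.87 and 2.02 log2 CPM in NTGF, against 0.76 to 0.86 in LTA and 2.31 to 2.49 in NTG. Every LTAF library was on the LTA side of every NTGF library in both lists.

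For some genes the frozen and the unfrozen crowns gave different acclimation differences. The interaction was called positive for 3566 genes (5.12% of tested genes) and negative for 4122 (5.91%). It uses the same LTAF and NTGF libraries as the comparison itself, so the groups of genes below are described by their levels and not tested again. In 1495 genes that were higher in LTAF than in NTGF, LTA against NTG made no call and the interaction was positive. Their median level was 2.02 log2 CPM in NTG, 1.80 in LTA, 0.50 in NTGF and 2.18 in LTAF, so NTGF was the group that stood low. In 1189 genes that were lower in LTAF, with no call before freezing and a negative interaction, the median was 2.82 in NTG, 2.92 in LTA, 3.68 in NTGF and 2.34 in LTAF. Here NTGF was the highest group and LTAF the lowest.

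In other genes a difference seen before freezing was not called after it. In 1571 genes higher in LTA than in NTG, with no call after freezing and a negative interaction, the median was 2.91 log2 CPM in NTG, 4.18 in LTA, 3.87 in NTGF and 3.91 in LTAF. The frozen groups met at a level near that of LTA. In 1331 genes lower in LTA, with no call after freezing and a positive interaction, the median was 2.35 in NTG, 0.19 in LTA, 0.86 in NTGF and 1.15 in LTAF, so the frozen groups met between the unfrozen ones. The 331 genes that changed from lower to higher had medians of 2.27 in NTG, 1.06 in LTA, 0.34 in NTGF and 1.61 in LTAF. The 293 that changed from higher to lower had 2.42, 3.39, 3.69 and 2.78 in the same order of groups.

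The interaction counts leaned on the scaling and on single libraries. Library totals turned their balance, with 5621 positive and 2169 negative. The positive count was 6194 without LTAF replicate 2, and 1094 to 2368 without LTAF replicate 1 or 3, LTA replicate 1, 2 or 3, or NTG replicate 1 or 2. The negative count was 6507 without LTAF replicate 2, and 1252 to 2728 without any of those same 7 libraries or NTGF replicate 2. The 624 opposite calls became 1298 without LTAF replicate 2, and 271 to 365 without LTAF replicate 1 or 3, LTA replicate 1 or 3, or NTG replicate 1 or 2. With an adjusted p under 0.01 the interaction called 451 positive and 541 negative genes.

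**Figure D3:**
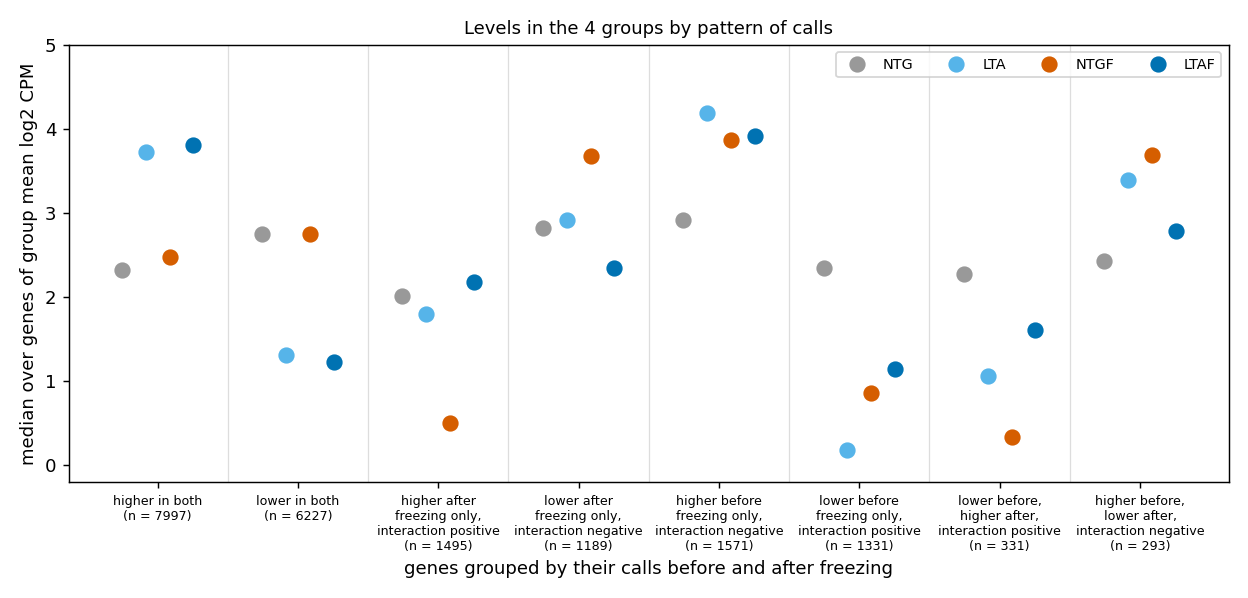
Median over genes of the group mean log2 CPM in NTG, LTA, NTGF and LTAF, for genes grouped by their calls before freezing (LTA against NTG), after freezing (LTAF against NTGF) and by the interaction. The first 2 sets show LTAF near LTA and NTGF near NTG; in the next 2, NTGF lies lowest (0.50) or highest (3.68) of the 4 groups.

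Some neighbouring genes were called in the same direction. A stretch is taken here as 5 or more tested HC models in a row, in identifier order on a chromosome, all called in one direction in LTAF against NTGF. There were 46 higher stretches with 256 genes and 23 lower stretches with 127 genes. Of all tested HC models, 20.1% were called higher and 20.7% lower. The stretches hold a small part of all calls, and no chance level was computed for them, so they are described by their values alone. Neighbouring models can be tandem copies that share reads, and the numbers below are the order numbers in the identifiers, not base positions.

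On 2D (453900 to 455000) 10 genes in a row were higher. Their mean was 3.45, 3.15 and 3.57 log2 CPM in LTAF replicates 1, 2 and 3 and -0.36, 0.35 and 1.65 log2 CPM in the NTGF replicates, so that NTGF replicate 3 lay nearest to LTAF. The unfrozen means were 2.64 ± 0.02 in LTA and 0.27 ± 0.24 in NTG (SD, n = 3), and 8 of the 10 genes were called higher in LTA as well.

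On 6A (94000 to 94600) 7 genes in a row differed the most, at 5.95, 5.06 and 6.42 log2 CPM in the LTAF replicates and 0.45, -0.83 and -1.65 log2 CPM in the NTGF replicates. The group means were 5.81 ± 0.69 in LTAF, 5.89 ± 0.07 in LTA, 2.79 ± 0.53 in NTG and -0.67 ± 1.06 in NTGF. NTGF was the lowest group by a wide margin, and the interaction was positive for 5 of the 7 genes. A stretch of 7 on 2B (482500 to 483100) had a comparable difference but another pattern. It lay at 5.25, 4.26 and 5.41 log2 CPM in the LTAF replicates and at -0.49, -1.36 and -0.68 in the NTGF replicates, with 4.08 ± 0.51 in LTA and -0.97 ± 0.24 in NTG. There the means of the 2 unacclimated groups were closer than their standard deviations, and the interaction was called for 0 of the 7 genes.

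The other long higher stretches had smaller differences than those on 6A and 2B. On 6B (400000 to 401000) 8 genes lay at 1.88 ± 0.27 log2 CPM in LTAF, -1.31 ± 1.15 in NTGF, -0.06 ± 0.22 in LTA and -1.29 ± 0.15 in NTG, so LTAF stood above LTA as well. On 2D (288100 to 289200) 8 genes lay at 4.68 ± 0.34 in LTAF and 3.32 ± 0.22 in NTGF, and on 2B (306800 to 307600) 7 genes lay at 4.90 ± 0.23 and 3.89 ± 0.24.

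The longest lower stretch, with 8 genes on 3D (293500 to 294400), lay at 1.78, 2.17 and 1.47 log2 CPM in the LTAF replicates and 3.81, 3.95 and 3.72 log2 CPM in the NTGF replicates. The groups did not overlap, and the unfrozen means were 2.56 ± 0.18 in LTA and 3.95 ± 0.24 in NTG, with 7 of the 8 genes called lower in LTA. On 7D (477200 to 477900) 7 genes lay at 1.91 ± 0.65 in LTAF and 3.47 ± 0.48 in NTGF. On 2D (13900 to 14700) 6 genes lay at 0.26 ± 0.37 in LTAF, 3.11 ± 0.23 in NTGF, 1.66 ± 0.06 in LTA and 3.05 ± 0.29 in NTG. LTAF was the lowest group there, below LTA.

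**Figure D4:**
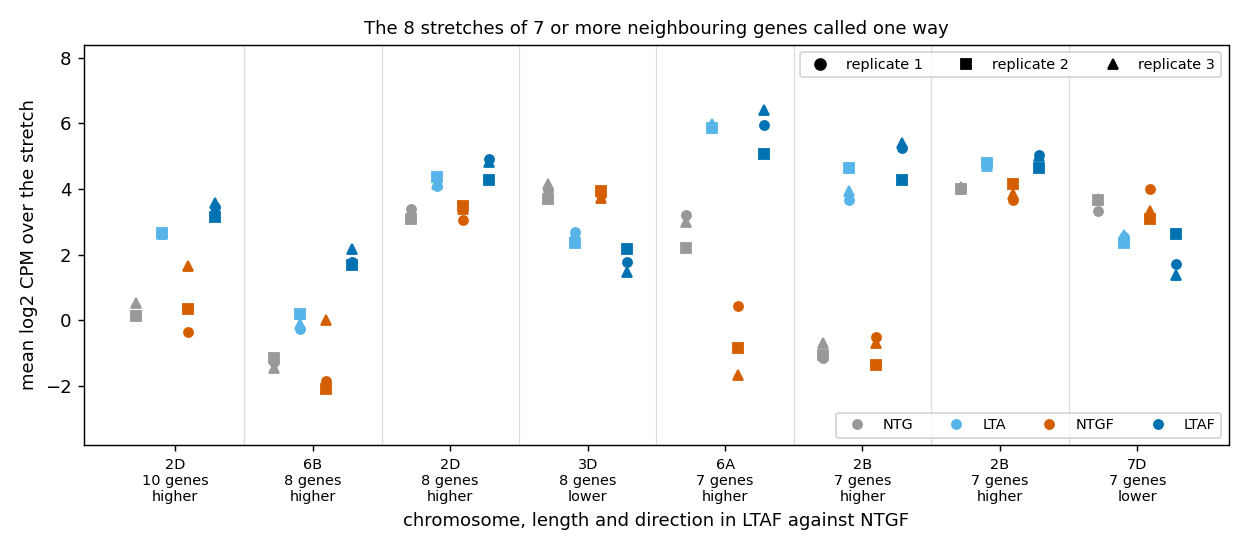
Mean log2 CPM over the genes of each of the 8 stretches with 7 or more neighbouring genes called one way in LTAF against NTGF, by library. Colour gives the group and shape the replicate. In the 6A stretch NTGF (-0.67 on average) lies below all other groups, while in the 2B stretch at 4.98 in LTAF the unacclimated groups lie together.

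Most stretches had the same sign before freezing. Averaged over a stretch, the log2 fold change before freezing had the sign of that after freezing in 45 of 46 higher stretches and 23 of 23 lower ones. Opposite calls before freezing made up 2.35% of all genes called higher in LTAF and 2.14% of those called lower. The share of same-sign averages was not computed for called genes outside stretches, so these counts do not set stretches apart. Of the stretch genes, 68.0% of the higher and 57.5% of the lower were called the same way in LTA against NTG. Of all genes called higher and lower in LTAF, these shares were 56.9% and 45.6%, but they include LC and unplaced models, which stretches leave out. In the fit of HC models only, 7107 of 11807 higher and 5502 of 11538 lower genes were called the same way. The exception was a stretch of 5 genes on 6D (316600 to 317500). Its means were 3.07 ± 0.33 log2 CPM for LTAF, 2.01 ± 0.23 for NTGF, 2.23 ± 0.09 for LTA and 2.49 ± 0.36 for NTG, and 3 of its genes were called higher and 1 lower in LTA against NTG. A stretch of 5 on 7D (206100 to 206500) had 2.30 ± 0.96 for LTAF and 0.03 ± 0.75 for NTGF, with 1.05 ± 0.71 for LTA and 1.13 ± 0.14 for NTG, and 0 of its genes were called before freezing. Its LTAF replicate 2 lay at 1.19 and its replicates 1 and 3 at 2.77 and 2.93. On 5A (311600 to 312200) 6 genes were lower in LTAF (3.01 ± 0.40) than in NTGF (5.07 ± 0.64), and both frozen groups were above LTA (-0.56 ± 0.17) and NTG (0.37 ± 0.69). Of these 6 genes, 3 were called lower and 3 higher in LTA than in NTG, so the sign of their average hides opposite calls.

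Few genes were present in one frozen group and without a count in the other. A gene counts as present here at 1 CPM or more in each of the 3 libraries. Of the genes without a count in any NTGF library, 46 were present in LTAF, 21 of them LC models. LC models were 46174 of all 128497 models and 12097 of the 69693 tested genes. Against a floor of 3 counts over the 3 NTGF libraries (0.0535 CPM), the 46 genes were at least 23.5-fold to at least 411.6-fold higher in LTAF. That size is fixed in part by the choice of these genes. Of these, 7 had no count in NTG either, and 0 had none in LTA. The converse, no count in LTAF and presence in NTGF, held for 3 genes, at least 39.6-fold to at least 48.2-fold lower against the LTAF floor of 0.0586 CPM, and all 3 had counts in NTG and in LTA. With presence at 0.5 CPM the numbers were 80 and 12, and at 2 CPM they were 18 and 1.

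Calls were spread over the genome. On the 21 chromosomes the share of tested genes called higher ran from 18.5% on 1B to 21.8% on 4D, and the share called lower was lowest on 7B and reached 20.5% on 5A. The A, B and D subgenomes had 20.4, 19.8 and 20.2% called higher and 19.7, 19.5 and 19.8% called lower. LC models were called higher in 20.3% and lower in 14.6% of 12097 tested, and HC models in 20.1% and 20.7% of 57596. The median log2 fold change was 0.09 for LC and -0.05 for HC models, a gap of 0.14 that was 0.00 without the filter on low counts. Without that filter the median over all 128497 models was also 0.00, so that setting cannot show whether the gap holds. Calls were more frequent among abundant genes, with 26.4% higher and 22.4% lower in the third with the highest mean level and 14.8% and 15.9% in the third with the lowest.

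The breadth of the transcript pool was compared over libraries. The most abundant genes that make up 50% of the counts numbered 2592, 2821 and 2288 in LTAF replicates 1, 2 and 3 and 2939, 2791 and 3272 in the NTGF replicates. The groups overlapped, with means of 2567 ± 267 and 3001 ± 246 (SD, n = 3 each; exact two-sided permutation p = 0.2, where 0.1 is the smallest that 3 against 3 libraries allow). Over HC models alone the numbers were 2412, 2610 and 2117 in LTAF and 2741, 2617 and 3060 in NTGF. There the groups did not overlap, with a difference of -426 genes (exact two-sided permutation p = 0.1), and neither p can pass 0.05 in this design. LC models held 5.40% ± 0.158 of the counts in LTAF and 5.58% ± 0.112 in NTGF (exact two-sided permutation p = 0.3).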

How the data were processed

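Per the file headers, the deposited table holds read counts, whole numbers that were not normalized, with 1 column for each of 12 libraries and 1 row for each gene model. Which aligner, counter, build or annotation was used is not given in the sources used here. Groups were taken from the labels. Counts were filtered with filterByExpr (minimum count 10), scaled with TMM and fitted in edgeR 4.0.16 under R 4.3.3, all 12 libraries together with 4 group means, using the robust quasi-likelihood F test, Benjamini-Hochberg adjustment over 69693 genes and a threshold of 0.05. The SE of a log2 fold change is its size divided by the square root of F. Log2 CPM uses a prior count of 2. Alternatives used DESeq2 1.42.0, limma-voom (limma 3.58.1), other scalings, filters and thresholds, a replicate block and each library left out. Exact permutation tests compared values that are single per library. The named genes are the first 2 per direction by difference in mean CPM among non-overlapping genes called at least 2-fold, and the first 12, like those of a ranking by fold change, are given as ranges and counts. The members, rules and tests were chosen with earlier results of these data known. Planned gene lists could not be applied, since no identifier has a name. The scripts were tested on simulated data. The p-values of the main fit weigh a difference between groups against a spread estimated from all 12 libraries. They cover only the variation between the libraries deposited.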

Additional observations from a re-analysis of the deposited data

Results flagged for a closer look

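The acclimation difference of frozen crowns (LTAF against NTGF) differed from that of unfrozen crowns (LTA against NTG) in a test of the difference itself for 3566 genes with a positive and 4122 genes with a negative interaction (edgeR adjusted p under 0.05). DESeq2 called 5168 and 6016, and limma-voom 2892 and 3852, while scaling by library totals turned the balance to 5621 positive and 2169 negative. Of the genes called higher in both comparisons, 262 had a positive interaction and 884 a negative one. The 262 had a median of 2.14 log2 CPM in NTG, 3.50 in LTA, 0.59 in NTGF and 3.84 in LTAF, and took 2.16% of the counts in LTAF and 0.192% in NTGF. The 884 had medians of 3.58, 5.57, 4.44 and 5.36 in the same order of groups, and took 7.64% of the counts in LTAF and 4.17% in NTGF. Of the genes called lower in both, 92 had a positive and 139 a negative interaction, with medians of 1.88 and 2.07 log2 CPM in LTAF, and of 3.18 in NTGF for the 92. The counts of interaction calls changed by more than 1.5 times on leaving out single libraries of 4 groups, as given above.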

How the results depend on the processing

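The 4 named genes kept their direction and their call under all 22 alternatives, with highest adjusted p values of 0.00542, 0.00653, 0.00425 and 0.0147 in the order in which they are described. These genes were chosen on the same libraries for their calls, lack of overlap and large differences. Their stability was thus largely fixed by the choice and does not speak for other calls. The replicate numbers gave no sign of pairing the libraries. Same-numbered LTAF and NTGF libraries deviated from their group means with correlations of -0.44 to 0.02. Of the LTAF libraries, 0 of 3 matched best with the NTGF library of its own number. With 3 libraries per group this check cannot show that same-numbered libraries were handled apart. With the replicate number as a block edgeR called 365 opposite calls, 1454 positive and 1699 negative interactions, and its lower genes held 29.2% of NTGF counts; the block moved no other count of calls by over 1.5 times. Leaving out 1 library at a time gave 10674 to 15186 higher and 9093 to 16300 lower genes, 7314 to 10526 and 6697 to 11519 changed 2-fold, 6575 to 8392 higher and 4402 to 7710 lower in both comparisons (the lowest without LTA replicate 2), 271 to 1298 opposite calls, 1094 to 6194 positive and 1252 to 6507 negative interactions, 34.0 to 46.2% of LTAF counts on higher genes and 24.3 to 40.3% of NTGF counts on lower genes, and an LC to HC gap of 0.11 to 0.17. An adjusted p under 0.01 gave 8472 higher and 7193 lower genes, 5688 lower by 2-fold, 4719 higher and 2762 lower in both, 99 opposite calls, 451 and 541 interactions, and shares of 30.6 and 21.9%. The fit of LTAF and NTGF alone gave 8078 and 7941 genes, shares of 27.6 and 22.6% and a gap of 0.0776. Library totals gave 11728 higher and 15867 lower genes, 5664 higher and 10174 lower in both, and 5621 positive and 2169 negative interactions, so that both balances turned, and a share of lower genes of 37.9%. That share was 37.3% with DESeq2, 35.4% with limma-voom, 28.4% with no filter (gap 0.00) and 31.0% with HC models only. Without LTAF replicate 2 and NTGF replicate 1 together, an alternative chosen after seeing the data, there were 14566 higher and 14175 lower genes, 1299 opposite calls, 5862 positive and 6598 negative interactions and a share of 38.4%. Stretches of 4 genes numbered 140 higher and 127 lower, of 8 genes 3 and 1, and with 1 uncalled gene allowed 96 and 75. Genes without a count in NTGF numbered 80 and 18 with presence at 0.5 and 2 CPM, and in LTAF 12 and 1. The difference in breadth was -561 to -294 genes and that in LC share -0.275 to -0.123 percentage points on leaving out 1 library. The cause of these changes was not tested. Some of these fits also held fewer libraries or genes.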

Other observations

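At the lowest-numbered end of chromosome 1A, 16 HC models held 123, 154 and 102 counts in LTAF replicates 1, 2 and 3 but 18, 3 and 4 counts in the NTGF replicates. The unfrozen libraries held 96 to 118 counts in LTA and 109 to 126 in NTG. NTGF alone was low, and a stretch of 5 genes called higher in LTAF (600 to 1800) begins within these models, at 0.48 ± 0.15 log2 CPM in LTAF, 0.23 ± 0.07 in LTA, -0.27 ± 0.04 in NTG and -1.88 ± 0.49 in NTGF (SD, n = 3). Whether NTGF plants lack these genes, through another genotype or pooled plants, or transcribe them less cannot be told apart in these data. The boundary was chosen after the values were seen. Of the 46 genes without a count in NTGF that were present in LTAF, 7 were present at 1 CPM or more in each library of both NTG and LTA, so that NTGF was the exception there too.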
